A study of Mus musculus with 12 samples.

Results

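Bmp10, a bone morphogenetic protein (BMP) of heart muscle, and 9 further genes of BMP signalling were followed in mouse heart: the ligand genes Bmp10, Bmp2, Bmp4 and Bmp6, the receptor genes Acvrl1, Bmpr2 and Bmpr1a, and the direct target genes Smad6, Smad7 and Id1. These 10 genes were chosen from 78317 gene IDs by their role, and from results already known: Bmp10 was one of the genes that had passed the test between the groups compared here. The values of that comparison are therefore given as a description of the 10 genes, and nothing is supported with them. RNA was sequenced in bulk from snap-frozen heart tissue labelled as ventricle, from C57BL/6J offspring that were themselves uninjured. One group was sired by males given a cardiac cryoinjury (a freezing injury of the heart) on postnatal day 1, and the other by uninjured males, with 6 libraries in each. By the labels, 3 of the 6 injured-sire offspring and 4 of the 6 uninjured-sire offspring were male, but the sex of each animal is not given. Collection is labelled as 3 wpp in one phrase that also calls the offspring adult, and the labels tie no animal to a litter, a sire, a time of day or a batch. Injured-sire replicate 16 is named in the labels as an outlier of a principal component analysis and was left out of the comparison, so that 5 injured-sire libraries were set against 6 uninjured-sire libraries. Its values are given separately where they matter.

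BMP ligands are secreted dimers that bring together a type I and a type II receptor kinase. The type I receptor then phosphorylates receptor SMAD proteins, which enter the nucleus with SMAD4 and switch on genes such as Id1, an inhibitor of basic helix-loop-helix factors, and Smad6 and Smad7, inhibitory SMADs that damp the same pathway. BMP10 is needed in the mouse embryo for growth of the ventricular trabeculae, and in the adult mouse heart it is made mainly by atrial muscle cells, from where it circulates and acts on endothelium through ALK1, the product of Acvrl1.

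The proximal promoter of Bmp10 is shown because Bmp10 is the gene the comparison turns on, and that of Smad6 as an example of a SMAD target. Both come from RefSeq on GRCm38.p6, another build than that of the counted genes, and run from 250 bases before to 50 after the start of transcription on the gene's own strand (Bmp10, chr6:87428744-87429043, plus strand; Smad6, chr9:64022010-64022309, minus strand). Capitals mark matches to the motifs searched on both strands.
Bmp10: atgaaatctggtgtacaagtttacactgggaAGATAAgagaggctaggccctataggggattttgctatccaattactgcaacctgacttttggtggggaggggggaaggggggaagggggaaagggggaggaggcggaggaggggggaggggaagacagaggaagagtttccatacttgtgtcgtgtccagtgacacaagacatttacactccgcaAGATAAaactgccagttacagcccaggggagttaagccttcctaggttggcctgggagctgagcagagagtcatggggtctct
Smad6: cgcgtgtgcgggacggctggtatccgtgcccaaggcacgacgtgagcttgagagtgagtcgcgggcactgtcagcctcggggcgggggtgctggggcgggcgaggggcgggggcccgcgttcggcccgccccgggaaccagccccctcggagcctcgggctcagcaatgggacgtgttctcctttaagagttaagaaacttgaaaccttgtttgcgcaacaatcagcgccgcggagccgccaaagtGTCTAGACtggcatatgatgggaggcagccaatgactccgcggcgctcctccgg
The Bmp10 window held AGATAA, a motif of the cardiac zinc finger factors such as Gata4, at 2 places, starting 219 and 33 bases before the start of transcription. That motif was found in 11.2% of the 32851 promoter windows in the same table. The Smad6 window held the SMAD palindrome GTCTAGAC once, starting 4 bases before the start of transcription, and 0.213% of all windows held it. The other motifs searched were GGCGCC, a GC-rich element bound by SMAD1 and SMAD5 (11.9% of all windows), the SMAD box CAGACA (21.0%), the E-box CACGTG (7.15%) and TATAAA (13.6%). None of these 4 was found in either window. The E-box was found once in the windows of Bmp4 and Bmp6, and GGCGCC once in those of Bmpr2 and Bmpr1a. Windows for 6 of the 10 genes were matched by symbol. A match to a motif is a description of the sequence and shows no binding.

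Bmp10 was the most abundant of the 10 transcripts per unit of length. Levels of different genes are given as TPM, computed from the deposited counts and the merged exon length of each gene, while comparisons of 1 gene between libraries use CPM after TMM scaling. Bmp10 (chromosome 6, 87405976 to 87414659, GRCm39) averaged 153 ± 20.4 TPM over the 11 libraries compared (SD), and 3.34% of the 17130 genes tested had a higher mean level. Id1 followed at 104 ± 14.4 TPM. Next came the type I receptor gene Bmpr1a at 42.4 ± 3.66 TPM, then Bmp6 at 27.4 ± 3.26 TPM and the endothelial type I receptor gene Acvrl1 at 22.1 ± 1.43 TPM. For these 5, the mean ± 1 SD did not overlap that of the next gene in the order.

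The lower levels ran together. Smad6 averaged 18.6 ± 1.34 TPM in the injured-sire group and 17.7 ± 1.61 TPM in the uninjured-sire group (SD, n = 5 and 6). The type II receptor gene Bmpr2 averaged 16.7 ± 1.98 TPM in the injured-sire group and 15.9 ± 1.82 TPM in the uninjured-sire group, and Smad7 15.3 ± 1.77 TPM in the injured-sire group and 14.7 ± 1.92 TPM in the uninjured-sire group. Smad6 and Bmpr2, Bmpr2 and Smad7, and Smad7 and Bmp4 (11.6 ± 1.83 TPM over 11 libraries) did not differ beyond their spread. Bmp2, a ligand of the atrioventricular canal in the mouse embryo, was the least abundant at 2.53 ± 0.417 TPM, so that Bmp10 stood 60.4-fold above it, 13.1-fold above Bmp4 and 5.59-fold above Bmp6. The exact order of the 10 means held in 4 of the 12 libraries, while Bmp10 was highest in 11 of 12. The exception was injured-sire replicate 16, with 85.5 TPM of Bmp10 and 99.4 TPM of Id1. Bmpr2 has 17983 bases of merged exons in the annotation used, the longest of the 10, and its level per length rests on that length.

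**Figure D1:**
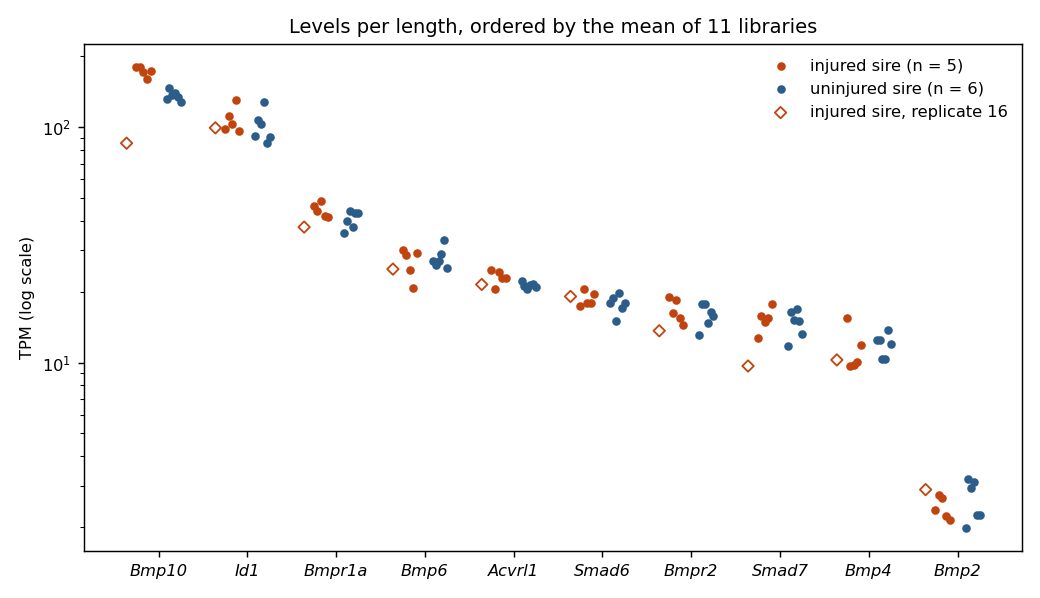
Levels of the 10 transcripts per length in each library, on a log TPM axis, in the order of their means over 11 libraries. Points are libraries of the injured-sire group (orange, left, n = 5, with replicate 16 as an open diamond) and the uninjured-sire group (blue, right, n = 6). Bmp10 leads the order at 153 TPM and Bmp2 ends it at 2.53 TPM.

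The groups were compared to see whether heart transcripts of uninjured offspring differ with a neonatal heart injury of the sire. Of the 17130 genes tested, 18 passed the threshold of 0.05 on the adjusted p of edgeR's quasi-likelihood test (Benjamini-Hochberg), which is 0.105% of genes. They were 9 higher in the injured-sire group (0.0525%) and 9 lower (0.0525%). All of the 10 genes here passed the filter on low counts, and Bmp10 is the 1 that was among the 18. It had been chosen for that, so its count is not read against the background.

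Bmp10 measured 302, 299.97, 277, 269.6 and 287 CPM in injured-sire replicates 12, 13, 14, 15 and 17, against a lowest of 219.6, a median of 232 and a highest of 259 CPM in the 6 uninjured-sire libraries. All 5 injured-sire libraries lay above all 6 uninjured-sire libraries. Group means were 287 ± 14.2 CPM (SD, n = 5) in the injured-sire group and 234.5 ± 13.5 CPM (SD, n = 6) in the uninjured-sire group, a ratio of 1.22. The fitted log2 fold change that led to its choice was 0.29 ± 0.0531 (SE), with a 95% confidence interval of 0.18 to 0.40 and an edgeR adjusted p of 0.0243. Groups that do not overlap in CPM were found for 1.06% of the genes tested, with the injured-sire group above for 0.432% and below for 0.625%. In these bulk samples, a difference in the number of Bmp10-expressing cells and in Bmp10 RNA per cell cannot be told apart.

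Replicate 16, labelled as injured-sire, had 165 CPM of Bmp10, below all 11 libraries of the comparison. With that library included, the estimate for Bmp10 was 0.19 ± 0.117 on the log2 scale (SE, edgeR adjusted p = 0.741), so the call holds only where this library is left out, as the labels do. The call was also lost when any of injured-sire replicates 12, 13, 14 and 17 or uninjured-sire replicates 20, 21 and 23 was left out, with fold changes of 0.27 to 0.30, and with a score of sex-linked (fold change 0.28 on the log2 scale), of airway (0.30) or of circadian clock genes (0.33) as covariate.

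**Figure D2:**
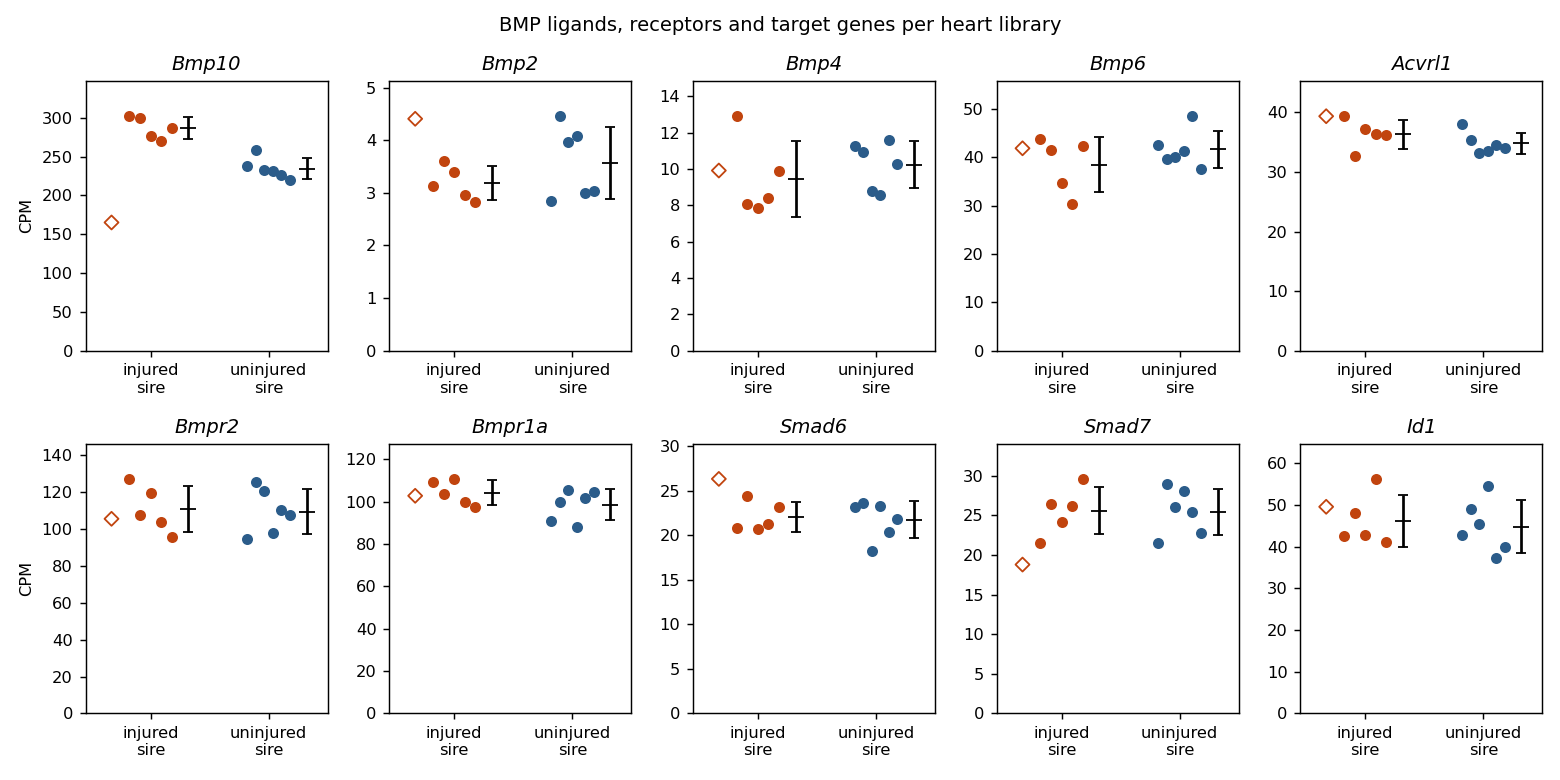
CPM of each gene in each heart library, with the axis from 0. Filled points are the 5 injured-sire (orange, left) and 6 uninjured-sire libraries (blue, right), bars are mean ± SD, and the open diamond is injured-sire replicate 16. Only for Bmp10 do the filled points of the groups separate, at 269.6 CPM and above against 259 CPM and below.

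The other ligand genes all had point estimates below 0, with intervals that include 0. Bmp6, an endothelial ligand best known in mouse liver for its control of iron uptake (chromosome 13, 38529083 to 38684278), measured 43.7, 41.6, 34.7, 30.2 and 42.3 CPM in injured-sire replicates 12, 13, 14, 15 and 17, against a lowest of 37.5, a median of 40.7 and a highest of 48.5 CPM in the uninjured-sire libraries. Replicates 14 and 15 lay below the uninjured-sire range and the other 3 within it. Its log2 fold change was -0.11 ± 0.0894 (SE).

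Bmp4, a ligand of the outflow tract in the mouse embryo (chromosome 14, 46620977 to 46628126), had 12.9, 8.09, 7.88, 8.40 and 9.89 CPM in injured-sire replicates 12, 13, 14, 15 and 17, against a lowest of 8.59, a median of 10.6 and a highest of 11.6 CPM in the uninjured-sire libraries. Replicate 12 lay above the uninjured-sire range and 13, 14 and 15 below it, which made Bmp4 the most variable of the 10 within the injured-sire group (coefficient of variation 22.2%, against 4.94% for Bmp10). Its log2 fold change was -0.12 ± 0.135 (SE). Bmp2 (chromosome 2, 133394079 to 133404805) ran from 2.82 to 3.60 CPM in the 5 injured-sire libraries and from 2.84 to 4.46 CPM in the 6 uninjured-sire libraries, with a log2 fold change of -0.16 ± 0.181 (SE).

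The receptor genes differed little between the groups. Acvrl1, which encodes the receptor that binds BMP10 with high affinity (chromosome 15, 101026403 to 101043217), measured 39.3, 32.6, 37.3, 36.4 and 36.2 CPM in injured-sire replicates 12, 13, 14, 15 and 17, against a lowest of 33.2, a median of 34.3 and a highest of 38.0 CPM in the uninjured-sire libraries. The ranges overlapped over most of their length, and the log2 fold change was 0.06 ± 0.0666 (SE, 95% confidence interval -0.07 to 0.20).

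Bmpr1a, the gene of the type I receptor ALK3, which heart muscle needs for its development in the mouse (chromosome 14, 34132691 to 34225298), averaged 104 ± 5.82 CPM (SD, n = 5) in the injured-sire group and 98.6 ± 7.33 CPM (SD, n = 6) in the uninjured-sire group. Of its 5 injured-sire libraries, 2 lay above the uninjured-sire range. Its log2 fold change was 0.08 ± 0.0601 (SE). Bmpr2 (chromosome 1, 59802559 to 59918173), whose human counterpart is mutated in heritable pulmonary arterial hypertension, averaged 111 ± 12.6 CPM in the injured-sire group and 109 ± 12.2 CPM in the uninjured-sire group (SD, n = 5 and 6), a log2 fold change of 0.02 ± 0.0804 (SE).

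The target genes, which BMP receptors switch on, had fold changes close to 0. Id1 (chromosome 2, 152578171 to 152579330) measured 42.5, 48.2, 42.8, 56.3 and 41.2 CPM in injured-sire replicates 12, 13, 14, 15 and 17, against a lowest of 37.2, a median of 44.1 and a highest of 54.6 CPM in the uninjured-sire libraries. The groups overlapped almost fully, with a log2 fold change of 0.04 ± 0.0967 (SE, 95% confidence interval -0.16 to 0.25).

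Smad6 (chromosome 9, 63860358 to 63929341) averaged 22.1 ± 1.66 CPM in the injured-sire group and 21.7 ± 2.102 CPM in the uninjured-sire group, and Smad7 (chromosome 18, 75500600 to 75529006) 25.6 ± 2.99 CPM in the injured-sire group and 25.5 ± 2.92 CPM in the uninjured-sire group (SD, n = 5 and 6). Their log2 fold changes were 0.02 ± 0.0824 and 0.01 ± 0.0904 (SE). For Smad7, the 95% confidence interval ran from -0.18 to 0.19, so differences of that size are not excluded in either direction. Over the 10 genes, 7 estimates were above 0 and 3 below, with a median of 0.02, beside 50.1% above 0 and a median of 0.00019 over all genes tested.

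**Figure D3:**
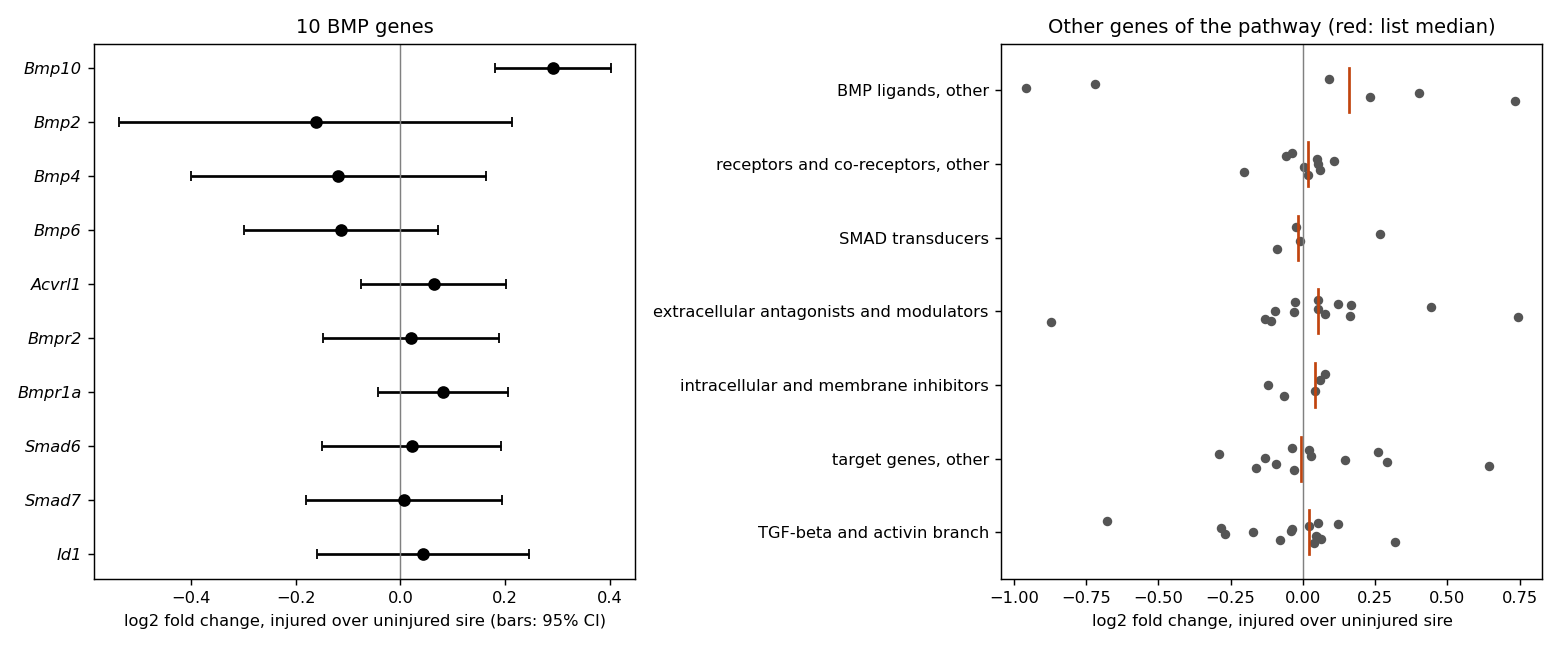
Log2 fold changes of the injured-sire over the uninjured-sire group (5 and 6 libraries). On the left, the 10 genes with their 95% confidence intervals, where the interval of Bmp10 lies above 0 and the other 9 include 0; on the right, each tested gene of the other pathway lists as a point, with the list median as a red line.

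The wider pathway was taken from 7 lists of 72 genes, of which 65 could be tested. None of the 65 passed the edgeR threshold, beside 0.105% of all genes tested. The count was also 0 by the DESeq2 Wald test (72 higher and 62 lower over all genes) and by limma voom (12 and 9). Of the 65, 8 had an unadjusted edgeR p below 0.05, beside 8.96% of all genes (4.28% higher and 4.68% lower). For none did the groups separate in CPM, beside 1.06% of all genes tested. With shares this small over all genes, a count of 0 does not set the 65 apart from other genes. The median log2 fold change of the 65 was 0.02, with 36 above 0 and 29 below.

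Among the further ligands, 6 of 10 were tested and all were scarce, the most abundant being Bmp5 at 1.55 TPM. Bmp3, which antagonises other BMPs, had 2.78 ± 1.29 CPM in the injured-sire group and 1.67 ± 0.636 CPM in the uninjured-sire group (SD, n = 5 and 6; edgeR adjusted p = 0.492), and Gdf6 0.899 ± 0.483 CPM in the injured-sire group and 1.49 ± 0.594 CPM in the uninjured-sire group (edgeR adjusted p = 0.621). Receptors and co-receptors were all measured, 9 of 9, with 6 above 0 and 3 below. Their most abundant transcript was that of Hjv (hemojuvelin, a BMP co-receptor of striated muscle and liver), at 292 TPM, above Bmp10. Tgfbr3 (betaglycan) had a log2 fold change of 0.11 ± 0.0765 and Rgmb of -0.06 ± 0.0718 (SE).

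Of the 4 SMAD transducers, Smad4, the common partner, was the most abundant at 35.3 TPM. Smad9 had a log2 fold change of 0.27 ± 0.173 and Smad1 of -0.09 ± 0.112 (SE). Of 14 extracellular antagonists and modulators tested, 8 were above 0 and 6 below. Fstl1, a secreted glycoprotein of the heart's stroma, was the most abundant of them at 139 TPM and had 273 ± 23.2 CPM in the injured-sire group and 244 ± 15.6 CPM in the uninjured-sire group (SD, n = 5 and 6; edgeR adjusted p = 0.391). Fst (follistatin, which traps activins and some BMPs) had 2.75 ± 0.513 CPM in the injured-sire group and 1.65 ± 0.764 CPM in the uninjured-sire group (edgeR adjusted p = 0.392).

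Of the 5 intracellular and membrane inhibitors, Ski, a SMAD corepressor, was the most abundant at 52.7 TPM with a log2 fold change of 0.06 ± 0.0541 (SE), and Smurf2, a ubiquitin ligase for SMADs and their receptors, had -0.12 ± 0.0583 (SE, edgeR adjusted p = 0.552). The 12 further target genes split into 6 above and 6 below 0. Id4 had 4.52 ± 1.18 CPM in the injured-sire group and 2.89 ± 0.380 CPM in the uninjured-sire group (SD, n = 5 and 6; edgeR adjusted p = 0.246), while its relative Id3 had 48.0 ± 1.92 CPM in the injured-sire group and 53.7 ± 6.11 CPM in the uninjured-sire group (edgeR adjusted p = 0.499). Hamp, the hepcidin gene and a BMP target in liver, was the most abundant of the 12 at 81.5 TPM. Of 15 genes of the TGF-beta and activin branch, 8 were above 0 and 7 below, with Tgfb2 at 0.32 ± 0.111 on the log2 scale (SE, edgeR adjusted p = 0.353) and Ctgf the most abundant at 125 TPM.

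Bmp10 is an atrial gene in adult mice, and atrial marker genes were present in all of these libraries labelled as ventricle. Of 10 atrial markers other than Bmp10, none was at 0 in any library: Myl7, the atrial myosin light chain gene, averaged 614 ± 37.0 CPM in the injured-sire group and 586 ± 75.3 CPM in the uninjured-sire group, and Sln (sarcolipin) 112 ± 4.08 CPM in the injured-sire group and 115 ± 10.4 CPM in the uninjured-sire group (SD, n = 5 and 6). Myl2, the ventricular light chain gene, averaged 4788 ± 405 CPM in the injured-sire group and 5094 ± 274 CPM in the uninjured-sire group. Summed over the 10 markers, the level ran from 3695 to 4320 CPM in the 5 injured-sire libraries and from 3455 to 4133 CPM in the 6 uninjured-sire libraries, with 3422 CPM in replicate 16.

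Atrial markers were slightly higher on average in the injured-sire group, though not past the threshold. Of the 10, 9 had a log2 fold change above 0, beside 50.1% of all genes tested. Of the same 10, 0 passed the edgeR threshold, beside 0.105% of all genes tested. An unadjusted edgeR p below 0.05 was found for 1 of them, beside 8.96% of all genes tested. Their mean log2 CPM was 7.01 ± 0.0601 (SD, n = 5) in the injured-sire group and 6.90 ± 0.116 (SD, n = 6) in the uninjured-sire group, a difference of 0.11 (exact two-sided permutation p = 0.0887 over 462 splits). Without uninjured-sire replicate 20 the difference was 0.14 (exact permutation p = 0.0159), the only setting tried with a p below 0.05. Leaving out any other library gave an exact permutation p of 0.0667 to 0.190. With all 12 libraries the difference was 0.0597 (exact permutation p = 0.407). From the sum of CPM without TMM scaling it was 0.0749 on the log2 scale (exact permutation p = 0.294). With this mean as a covariate, the estimate for Bmp10 was 0.34 ± 0.0616 on the log2 scale (SE, edgeR adjusted p = 0.0288), against 0.29 ± 0.0531 without it. Because Bmp10 was chosen from the same comparison, both values are a description. The part of atrial tissue in the Bmp10 difference was not tested.

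Within the groups, libraries with more atrial marker RNA tended to have less Bmp10, a relation that did not pass its test. With each value centred on its group's mean, Bmp10 and the atrial mean had Pearson's r = -0.52 (exact permutation p = 0.13) and Spearman's rho = -0.37 (exact permutation p = 0.29) over 11 libraries, and r = -0.30 without the 2 libraries farthest out on the atrial mean. This was 1 of 120 relations computed between the 10 genes and 12 marker lists, and its adjusted p was 0.86 for r and 0.881 for rho. None of the 120 passed after adjustment, and 7 had an unadjusted p for r below 0.05. When replicate 16 was added, which had the lowest atrial mean (6.70) and the lowest Bmp10 of all 12 libraries, all of the 9 atrial markers abundant enough for the search described next had a positive r with Bmp10, from 0.11 for Kcna5 to 0.82 for Dkk3, against 8 of 9 with a negative r over the 11.

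**Figure D4:**
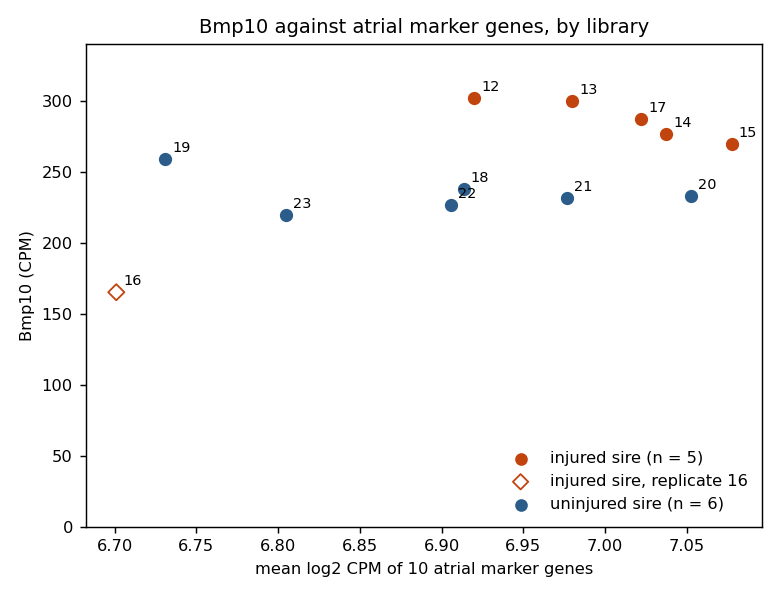
Bmp10 (CPM, from 0) against the mean log2 CPM of 10 atrial marker genes, 1 point per library with its replicate number. The 5 injured-sire libraries (orange) lie above the 6 uninjured-sire libraries (blue) over an overlapping range of atrial levels, and injured-sire replicate 16 (open diamond) is lowest on both axes, at 165 CPM and 6.70.

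The other marker lists are given as values, without a test of the lists. No gene on them passed the edgeR threshold, beside 0.105% of all genes tested. The mean of 7 smooth muscle and pericyte markers was 7.39 ± 0.0810 log2 CPM in the injured-sire group and 7.11 ± 0.192 in the uninjured-sire group (SD, n = 5 and 6). Of these 7, 5 had an unadjusted edgeR p below 0.05, in both directions, beside 8.96% of all genes tested (4.28% higher and 4.68% lower). Acta2 (log2 fold change 0.38), Tagln (0.45), Myh11 (0.47) and Cnn1 (0.69), genes of the contractile apparatus, had estimates above 0. The pericyte marker Kcnj8 (-0.16) was below 0, while Rgs5 was at 0.01 and Abcc9 at -0.08. Airway and lung markers summed to between 33.9 and 554 CPM in the 5 injured-sire libraries and between 0.362 and 340 CPM in the uninjured-sire libraries, with 5 of the 7 at 0 in some library. Injured-sire replicate 16, left out of that range, had 0.430 CPM. Uninjured-sire replicates 18 and 21 had 340 and 258 CPM, and the others of that group 4.45 CPM or less. Scgb1a1 averaged 125 ± 96.4 CPM in the injured-sire group and 47.0 ± 72.9 CPM in the uninjured-sire group. Fat markers summed to between 110 and 441 CPM in the injured-sire libraries and between 37.3 and 332 CPM in the uninjured-sire libraries, with Ucp1 at 115 ± 66.0 CPM in the injured-sire group and 67.0 ± 53.7 CPM in the uninjured-sire group. The airway and lung mean was 2.06 ± 1.31 log2 CPM in the injured-sire group and -1.02 ± 2.99 in the uninjured-sire group, a difference of 3.08. That difference is without replicate 16, whose airway and lung mean was -3.38. The fat mean was 5.50 ± 0.723 in the injured-sire group and 4.47 ± 1.48 in the uninjured-sire group, a difference of 1.03. Differences of the list means were 0.02 for endothelial markers (Pecam1 at 269 ± 18.4 CPM in the injured-sire group and 269.8 ± 14.6 CPM in the uninjured-sire group), 0.07 for endocardial, 0.04 for cardiomyocyte, 0.02 for ventricular and -0.01 for fibroblast markers. Within the endothelial and endocardial lists, Vwf and Npr3, singled out after their values were seen, had the highest fold changes of their lists (0.29 and 0.28 on the log2 scale). Vwf had 145 ± 15.6 CPM in the injured-sire group and 119 ± 7.63 CPM in the uninjured-sire group (edgeR adjusted p = 0.101). Its groups did not overlap, as was found with the injured-sire group above for 0.432% of all genes tested. Npr3 had 69.5 ± 6.49 CPM in the injured-sire group and 57.2 ± 6.68 CPM in the uninjured-sire group (edgeR adjusted p = 0.206). Differences were -0.17 for macrophage, -0.19 for erythroid and 0.20 for liver markers, the last at no more than 11.2 CPM in sum. The part of these lists in the Bmp10 difference was not tested, and the fits with the airway and atrial covariates given above are descriptions.

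The genes whose variation within the groups was most like that of Bmp10 were sought among 10671 tested genes with a mean log2 CPM of at least 2. Genes without a symbol, or with a predicted, clone or Rik name, were left out of this search. The measure was Pearson's r of the group-centred log2 CPM over the 11 libraries. The 8 highest were Hspd1, a mitochondrial chaperonin gene (r = 0.95), Fermt2 (0.91), the citrate synthase gene Cs (0.91), Fem1a (0.91), Ammecr1 (0.91), the sodium pump subunit gene Atp1b1 (0.89), Amotl2 (0.88) and Slc43a3 (0.88). These had log2 fold changes between the groups of -0.07 to 0.22, and none passed the edgeR test, beside 0.105% of all genes tested. Bmp2 lay below that level cut and was not in the search; its r with Bmp10, on the same measure, was 0.53. Of the BMP genes searched, the most alike were Bmp6, with r = 0.44 at place 1371 of the list, and Smad6 with 0.41, while Bmpr1a was at -0.03. With 11 libraries this list was unsteady: ranks in place of values kept 5 of the 8 genes, and adding replicate 16 kept 0.

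**Figure D5:**
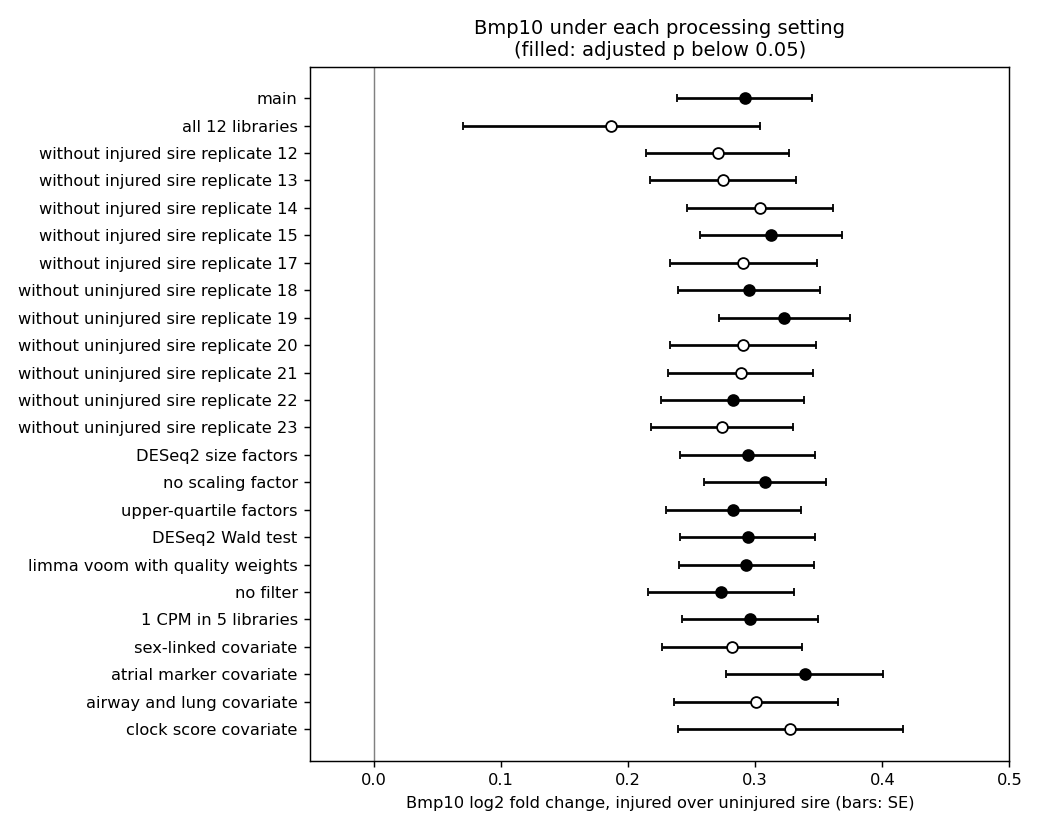
Log2 fold change of Bmp10 (injured-sire over uninjured-sire, bars are SE) in the comparison as reported (main) and under each other setting tried, with filled points where the adjusted p was below 0.05. The threshold of 0.1 is not drawn, as it uses the same fit as main. All points lie above 0, between 0.19 with all 12 libraries and 0.34 with the atrial covariate.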

How the data were processed

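The authors deposited raw, unnormalized counts of reads per gene. They come from featureCounts 2.1.1 with the Ensembl release 114 annotation of GRCm39, strand setting 2 and no option for multi-mapping reads or read pairs, per the file headers. STAR 2.7.10a, Subread 2.0.3, Salmon 1.9.0 and DESeq2 1.44.0 are also named, per the submitters' processing notes. Library totals were 30537315 to 42090257 counts. No 2 libraries of a group were alike within counting noise, with chi-square over its degrees of freedom at 14.3 to 45.4. A further 11 sample columns were left unused. Gene IDs were given symbols from GENCODE M21 (51487 of 78317).

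R 4.3.3 with edgeR 4.0.16 was used: filterByExpr (at least 10 counts, 15 in total), TMM scaling, and quasi-likelihood F tests (robust, two-sided), adjusted by Benjamini-Hochberg over 17130 genes. SEs were derived from F, and log2 CPM have a prior count of 2. CPM of replicate 16 use TMM factors of all 12 libraries. TPM use the merged exon length in the file. Correlation tests enumerated 86400 permutations within groups. Alternatives used DESeq2 1.42.0 and limma 3.58.1. The edgeR fit was tested on simulated counts, and the form of the exact permutation test between groups on a made-up set of fully separated values. The labels name no litter, and littermates would make the p-values too small. The genes, lists and alternatives were chosen with earlier results of these data known. Named genes are the 10 BMP genes, in each pathway list the 2 with the smallest p and the 1 with the highest TPM, set marker genes, and the 8 most like Bmp10. Of these, 1 is not reported here.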

Additional observations from a re-analysis of the deposited data

Results flagged for a closer look

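Of 54 sets of libraries examined, 5 held a library far from the others of its group by Dixon's criterion, which flags about 1 in 20 by chance. Bmp10 in injured-sire replicate 16 was at 165 CPM when that library was included, and the nearest library of its group at 267 CPM, both with scaling factors of all 12 libraries. The other 4 concern marker lists. The mean of ventricular markers in injured-sire replicate 14 was 8.07 log2 CPM, with the nearest library at 8.21. The mean of endothelial markers in uninjured-sire replicate 23 was 7.20, with the nearest at 7.15. In injured-sire replicate 17 the mean of macrophage markers was 3.57, with the nearest at 3.96, and that of airway and lung markers -0.22, with the nearest at 2.21.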

How the results depend on the processing

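Bmp10 was higher in the injured-sire group under all 24 alternatives, and its call was kept in 13 and lost in 11. The 24, and the 13 kept, include the reported fit read at a threshold of 0.1, where neither sign nor call could change. Its log2 fold change was 0.19 with all 12 libraries, 0.28 with the sex-linked covariate (edgeR adjusted p = 0.0552), 0.30 with the airway covariate (0.0951), 0.33 with the clock score (0.418), and 0.27 to 0.32 when 1 library was left out (adjusted p 0.00898 to 0.123), and over all alternatives its adjusted p ran from 4.31e-05 to 0.741. Among the other 9 genes, 3 (Bmp2, Bmp6 and Acvrl1) kept their sign under all alternatives and 6 did not, and the lowest adjusted p in any setting was 0.343. With the clock score Bmpr2 and Bmpr1a moved by more than the SD between libraries, to -0.15 and -0.05. By more than their SE, Smad6, Smad7 and Id1 moved to 0.11, 0.14 and 0.19 with the clock score, Bmpr2, Bmpr1a and Id1 to 0.14, 0.17 and -0.06 with the airway covariate, and Bmp4 to 0.04 with the atrial covariate and -0.26 without injured-sire replicate 12. The count of called genes was 134 by the DESeq2 Wald test, 236 with no filter, 28 with a filter of 1 CPM in 5 libraries, 49 at a threshold of 0.1, 8 to 43 when 1 library was left out (in the injured-sire group 28 on leaving out replicate 12, 8 for replicate 13 and 9 for replicate 14, and in the uninjured-sire group 43 for replicate 22 and 9 for replicate 23), and 0 with the clock score (937 at an unadjusted p below 0.05). It was split into 9 higher and 9 lower as reported, 17 and 8 with no scaling factor, 7 and 12 with upper-quartile factors, and 11 and 4 with the airway covariate. No gene of the wider pathway lists was called in any alternative, beside 0.105% of all genes tested in the comparison as reported. The atrial difference was 0.0768 to 0.141 when 1 library was left out. Of the 8 genes most like Bmp10, 5 were kept by Spearman's rho, 0 with all 12 libraries and 0 without centring. By CPM, not per length, Bmpr2 came second. The causes were not tested. No paired analysis was possible because the groups share no replicate number.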
